A study of Mus musculus with 15 samples.

Results

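The BCL2 family sets the threshold at which a cell permeabilizes its outer mitochondrial membrane and commits to apoptosis. Antiapoptotic members hold the membrane intact by binding the BH3 helix of their proapoptotic relatives, the effectors Bax and Bak form the pore, and the BH3-only proteins sense stress and either block the antiapoptotic members or switch on the effectors. Their balance is studied in the retinal pigment epithelium (RPE), a long-lived, non-dividing layer under the photoreceptors whose loss marks atrophic macular degeneration. The genes described here are 10 members of this family, taken by their gene symbols from both raw count tables: 3 antiapoptotic genes (*Bcl2*, *Bcl2l1* and *Mcl1*), 2 effectors (*Bax* and *Bak1*) and 5 BH3-only genes (*Bcl2l11*, *Bbc3*, *Pmaip1*, *Bid* and *Bmf*). Each had a single row among the 20910 genes of the cultured cell table and among the 25038 genes of the tissue table.

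RNA was sequenced from 15 mouse libraries to ask what loss of *Prom1*, which encodes the membrane protein prominin-1, does to RPE cells. In culture, all groups share an immortalized mouse RPE line (mRPE), which was pooled from 8- to 12-week-old C57BL/6J mice and carries lentiviral HPV E6/E7. E6 and E7 are viral proteins known to inactivate p53 and the retinoblastoma protein, and p53 is a known activator of *Bbc3*, *Pmaip1* and *Bax*. The study transduced cells with a Cas9 lentivirus under puromycin and transfected them with scrambled or *Prom1* guide RNA. The groups were WT mRPE (4 libraries), the *Prom1*-KO line KO22 (3 libraries) and the *Prom1*-KO line KO26 (2 libraries), so that each knockout is represented by 1 clone. The study describes the deletions of its KO lines as lying at different places within *Prom1*, and the sources used here give 1 guide sequence. Both KO26 libraries were set aside as outliers in the study. The sequencing batch, read from the library name, was 8995 for 1 library of each group and 9262 for the rest. In tissue, RPE/choroid was dissected from WT mice (3 libraries) and from mice labelled Prom1_KO (3 libraries), that is Prom1fl/fl crossed with RPE65-Cre and gavaged with tamoxifen so that Cre acts in RPE cells and photoreceptors keep the gene. The mice of the project were 6 to 8 weeks old, and neither the tamoxifen treatment of the WT mice nor whether each library is 1 mouse is given in the sources used here. The study speaks of biological replicates in mRPE, but the labels do not tie libraries to separate cultures or mice, so p-values measure the spread between libraries, which may be technical.

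Total counts were 10187978 to 27537863 per library in WT mRPE, 11863633 to 20760399 in KO22, 8076188 and 24175274 in KO26, and 48154444 to 61766179 in RPE/choroid. Levels in CPM are counts scaled to the library total times its TMM normalization factor. Of 13 RPE markers, 9 (with *Rpe65*, *Rlbp1* and *Lrat* among them) are not among the genes listed for mRPE. The remaining 4 (*Best1*, *Rdh5*, *Mitf* and *Pmel*) summed to 11.8 to 17.4 CPM in WT, 17.3 to 39.95 CPM in KO22 and 8.17 to 12.6 CPM in KO26. Fibroblast and mural markers, 7 of 8 of them listed, summed to 6785 to 8912 CPM in WT mRPE, 2834 to 4331 CPM in KO22 and 9370 to 10510 CPM in KO26, and endothelial markers, 6 of 8 listed, to 216.7 to 268.9, 80.9 to 96.3 and 115.7 to 122.4 CPM. Their part in the results below was not tested. In tissue, the library 12965-SB-06 labelled Prom1_KO stood apart, with 84.2% of its counts on mitochondrially encoded genes against 64.9 to 71.3% in the other 5, and the tissue estimates of the members are given with and without it.

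The *Prom1* guide RNA given in the labels matched mm39 at chr5:44213310-44213329 on the minus strand, in exon 5 of *Prom1*, and is shown because it targets the gene that the study knocked out.

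*Prom1* guide: CGTTGCTGCAACAAATGCGG

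The feature that defines the family at the sequence level is the BH3 helix, in which a leucine, 3 further residues, a small residue (glycine or alanine) and an aspartate lie in the groove of the antiapoptotic partner. The coding stretches are shown so that the members can be compared; a search for this pattern in the GENCODE M39 canonical coding sequences (mm39) found exactly 1 match in each of the 9 members shown, and capitals mark the codons of the leucine, the small residue and the aspartate. The small residue was alanine in *Bbc3* and *Bmf* and glycine in the other 7.

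*Bcl2*: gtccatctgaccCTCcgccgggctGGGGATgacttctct
*Bcl2l1*: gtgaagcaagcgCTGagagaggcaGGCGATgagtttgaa
*Mcl1*: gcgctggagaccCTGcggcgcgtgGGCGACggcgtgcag
*Bax*: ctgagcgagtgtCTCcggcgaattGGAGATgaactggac
*Bak1*: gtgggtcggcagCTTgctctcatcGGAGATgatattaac
*Bcl2l11*: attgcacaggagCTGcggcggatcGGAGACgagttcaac
*Bbc3*: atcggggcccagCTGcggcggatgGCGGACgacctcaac
*Bid*: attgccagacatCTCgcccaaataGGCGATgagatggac
*Bmf*: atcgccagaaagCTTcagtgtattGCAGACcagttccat

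The genes lie on 7 chromosomes in mm39. *Bcl2l1* (chr2:152622582-152673655), *Bcl2l11* (chr2:127967958-128004476) and *Bmf* (chr2:118359238-118380177) share chromosome 2, and *Bax* (chr7:45111015-45116325) and *Bbc3* (chr7:16042318-16052130) share chromosome 7. The others are *Bcl2* at chr1:106465908-106642060, *Mcl1* at chr3:95566026-95570487, *Bid* at chr6:120862525-120894171, *Bak1* at chr17:27238784-27247983 and *Pmaip1* at chr18:66591604-66598636. Some members share exon sequence with a neighbour, and the strand column used for counting is not given in the sources used here, so their reads may not be fully separable. The shared part was 34.5% of the exon bases for *Bid* (mostly opposite *Bcl2l13*, itself a BCL2 relative), 25.5% for *Bak1* (mostly opposite *Ggnbp1*), 13.6% for *Bax*, 9.3% for *Bcl2l1*, 6.1% for *Bcl2* and 1.9% for *Bcl2l11*, and none for *Mcl1*, *Bbc3*, *Pmaip1* and *Bmf*.

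Levels are given as CPM on the TMM scale, and per kilobase of exon (union of all exons of a gene) where genes are compared. In WT mRPE, *Mcl1*, a short-lived protein that guards against *Bcl2l11* (Bim) and *Pmaip1* (Noxa), had by far the highest level, at 33.8 ± 6.90 CPM per kilobase (SD, n = 4). A middle group followed, with *Bcl2l11* at 5.27, *Bax* at 5.05, *Bak1* at 4.53, *Bid* at 2.95, *Bmf* at 2.73, *Bcl2l1* at 2.16 and *Bcl2* at 1.91 CPM per kilobase. Neighbours in this order overlapped between libraries, except for *Mcl1* above *Bcl2l11*, *Bmf* above *Bcl2l1*, *Bcl2* above *Pmaip1*, and *Pmaip1* above *Bbc3*. *Pmaip1* and *Bbc3* (Puma) were last, at 0.572 and 0.116 CPM per kilobase. *Bbc3* rested on 5 to 19 counts per mRPE library, so differences in it were hardly measurable at this depth. With the longest transcript as gene length in place of the union of exons, the order of *Bak1* and *Bid*, and of *Bmf* and *Bcl2l1*, was swapped in WT, while *Mcl1* stayed first and *Bbc3* last in all 3 mRPE groups.

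KO22 cells had 1.87-fold more *Mcl1* and 1.98-fold more *Bcl2l1* RNA than WT cells, 1.76-fold more *Bak1*, 2.5-fold less *Bcl2* and 4.51-fold less *Bmf*. Thus the antiapoptotic genes moved in opposite directions, and among the BH3-only genes the fall was in *Bmf* and, to a smaller degree, *Bcl2l11*. A difference was called at an adjusted p under 0.05 (edgeR quasi-likelihood test, Benjamini-Hochberg over all genes) together with an absolute log2 fold change over 1.2, and calls by the adjusted p alone are given as a second count. By both limits 0 of the 10 members were higher and 2 were lower (*Bcl2* and *Bmf*), where 11.4% of the 20455 genes tested were higher and 13.8% lower. By the adjusted p alone 3 were higher (*Bcl2l1*, *Mcl1* and *Bak1*) and 3 lower (*Bcl2*, *Bcl2l11* and *Bmf*), against 26.9% higher and 26.1% lower over all genes. The share of members called was therefore close to that of all genes, and the values of single members rather than their number are described below. How often the KO22 and WT libraries do not overlap over all genes was not counted.

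**Figure D1:**
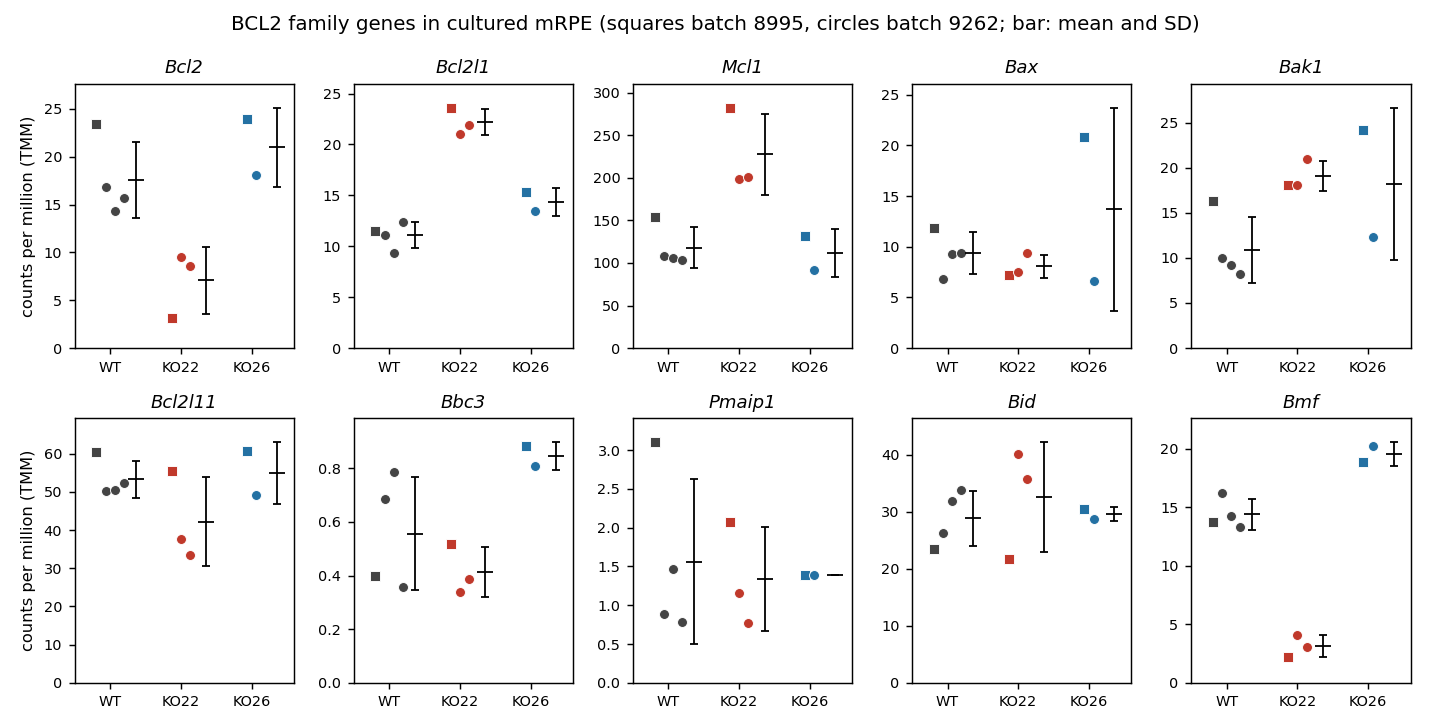
Level of each BCL2 family gene in each mRPE library, in CPM on the TMM scale on a linear axis from 0, for WT, KO22 and KO26; squares are batch 8995, circles batch 9262, and the bar beside each group is the mean and SD. *Bmf* lies at 2.25 to 4.10 CPM in KO22 and at 13.3 CPM or more in all other libraries, and *Mcl1* and *Bcl2l1* are highest in the 3 KO22 libraries.

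*Mcl1* stood at 154.0 CPM in the WT library of batch 8995 and at 108.5, 106.0 and 103.4 CPM in the 3 WT libraries of batch 9262. In KO22 it was 282.2 CPM in batch 8995 and 198.4 and 201.4 CPM in batch 9262. All 3 KO22 libraries lay above all 4 WT libraries, and within each group the batch 8995 library was the higher one. This gave a log2 fold change of 0.90 ± 0.09 (SE; adjusted p = 5.3e-05, edgeR), and the ratio of KO22 to WT was 1.83 within batch 8995 and 1.89 within batch 9262.

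*Bcl2l1*, which encodes Bcl-xL, the antiapoptotic protein of the outer membrane in many non-dividing cells, was at 11.5, 11.1, 9.33 and 12.4 CPM in the WT libraries. In KO22 it was at 23.6, 21.1 and 21.9 CPM, with no overlap and little spread within either group. The log2 fold change was 0.99 ± 0.14 (adjusted p = 0.000346, edgeR), with a ratio of 2.05 within batch 8995 and 1.96 within batch 9262.

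*Bcl2*, the founding antiapoptotic gene, moved the other way. Its levels were 23.4, 16.9, 14.3 and 15.7 CPM in WT and 3.11, 9.55 and 8.54 CPM in KO22. The groups did not overlap, and the lowest KO22 value and the highest WT value both came from batch 8995. The log2 fold change over both batches was -1.32 ± 0.34 (adjusted p = 0.00905, edgeR). The WT level was 7.5 times that of KO22 within batch 8995, with 1 library in each group, and 1.73 times within batch 9262. Without 8995-SB-2 the log2 fold change was -0.77 (adjusted p = 4.22e-05), and without the WT library 8995-SB-1 it was -0.80, so that *Bcl2* kept its direction and its adjusted p but no longer passed the limit on the fold change. With either of these libraries left out, the batch term takes up the other, so both values rest on batch 9262.

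**Figure D2:**
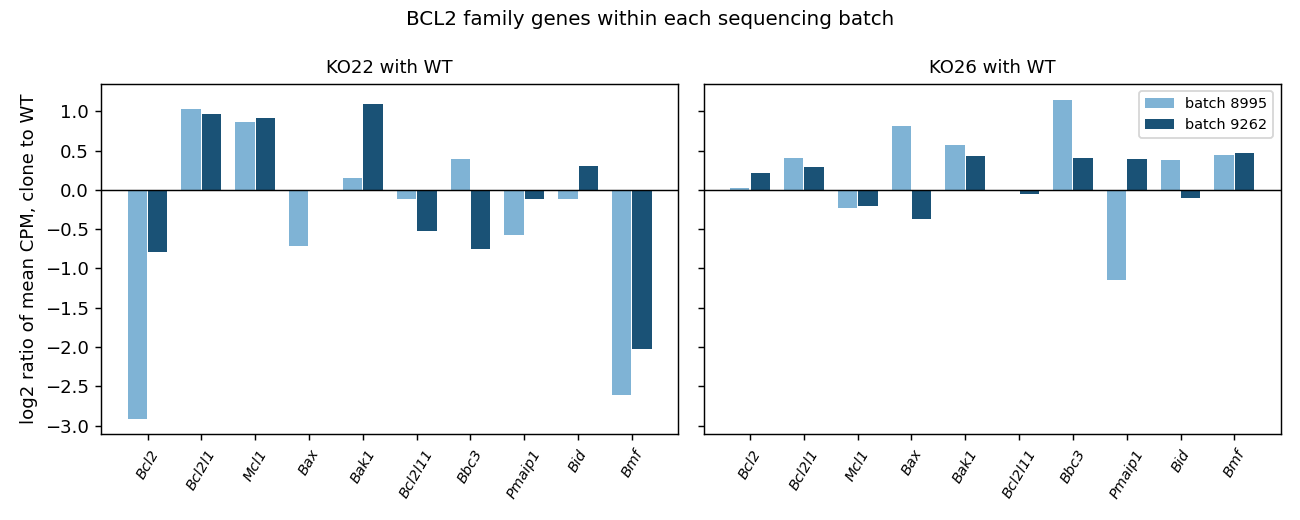
Log2 ratio of the mean CPM of KO22 (left) and KO26 (right) to that of WT for each BCL2 family gene, computed within batch 8995 (light bars, 1 library in each group) and within batch 9262 (dark bars). The ratio of KO22 to WT is about the same in both batches for *Mcl1* (0.87 and 0.92) and *Bcl2l1* (1.03 and 0.97), and differs most for *Bcl2* (-2.91 and -0.79).

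Of the effectors, *Bak1*, whose protein sits in the outer mitochondrial membrane, had 16.3 CPM in the WT library of batch 8995 and 9.94, 9.23 and 8.18 CPM in the other WT libraries. In KO22 it had 18.1, 18.1 and 21.0 CPM, which was above every WT library. The log2 fold change was 0.81 ± 0.20 (adjusted p = 0.00677, edgeR), but the ratio of KO22 to WT was 1.11 within batch 8995 and 2.14 within batch 9262. *Bax*, whose protein moves from the cytosol to mitochondria on activation, ranged from 6.86 to 11.9 CPM in WT and from 7.26 to 9.39 CPM in KO22. These ranges overlapped, and its log2 fold change was -0.22 with a 95% interval of -0.69 to 0.25 (adjusted p = 0.397, edgeR).

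Among the BH3-only genes, *Bmf*, whose protein is held at the cytoskeleton and released on detachment or other stress, had the smallest adjusted p of the 10 members. Its levels were 13.8, 16.3, 14.2 and 13.3 CPM in WT and 2.25, 4.10 and 3.03 CPM in KO22, with a wide gap between the groups. *Bmf* had a log2 fold change of -2.17 ± 0.20 (adjusted p = 2.73e-05, edgeR), and the WT level was 6.11 times that of KO22 within batch 8995 and 4.1 times within batch 9262. *Bmf* in KO22 rested on 26 to 85 counts per library.

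*Bcl2l11*, which encodes Bim, a BH3-only protein that binds all antiapoptotic members, was at 60.4, 50.2, 50.5 and 52.3 CPM in WT and at 55.5, 37.6 and 33.5 CPM in KO22. The KO22 library of batch 8995 lay within the WT range and the other 2 lay below it. For *Bcl2l11* the log2 fold change was -0.40 ± 0.12 (adjusted p = 0.018, edgeR), with a log2 ratio of -0.12 within batch 8995 and -0.52 within batch 9262. This was the least stable of the 6 members past the adjusted p, which was 0.0518 without the WT library 9262-SB-3, 0.055 without 9262-SB-4, 0.0711 without 9262-SB-5 and 0.153 with no batch term.

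The other BH3-only genes did not pass the test in KO22. *Bid*, which is cut by caspase-8 to link death receptors to mitochondria, ranged from 23.4 to 33.8 CPM in WT and from 21.7 to 40.2 CPM in KO22 (log2 fold change 0.19, 95% interval -0.13 to 0.50). In *Bid* the batches pointed in different directions, with a log2 ratio of -0.11 within batch 8995 and 0.31 within batch 9262, and its adjusted p was 0.0147 without 8995-SB-2, 0.0231 without 8995-SB-1 and 0.0167 in batch 9262 alone (edgeR). With either batch 8995 library left out, the batch term takes up the other, so all these fits rest on batch 9262. *Pmaip1* ranged from 0.789 to 3.10 CPM in WT and from 0.776 to 2.08 CPM in KO22 (interval -1.0 to 0.50), and *Bbc3* from 0.359 to 0.786 CPM and from 0.338 to 0.519 CPM (interval -1.46 to 0.67).

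KO26 is the other *Prom1*-KO clone, and no member passed either limit against WT in a fit over all 9 mRPE libraries. The genes tested numbered 20737, of which 1.21% were higher and 0.719% lower by both limits, and 2.36% higher and 1.13% lower by the adjusted p alone. At an unadjusted p under 0.05, 2 of the 10 members passed, where 20.1% of all genes did, and both had a higher level in KO26. *Bmf* was at 18.8 and 20.2 CPM in KO26, above all 4 WT libraries (log2 fold change 0.50 ± 0.21, adjusted p = 0.21, edgeR), a direction opposite to its fall in KO22. *Bak1* was at 24.2 and 12.3 CPM (log2 fold change 0.58 ± 0.25, adjusted p = 0.221), and its lower value lay within the WT range. Its adjusted p was 0.0346 when the KO22 library 8995-SB-2 was left out of the fit, the only such case among the members. The adjusted p of *Bmf* was 0.0517 in that fit, 0.059 with the WT and KO26 libraries alone and 0.368 with no batch term (edgeR). For *Bak1* it was 0.0581 with the WT and KO26 libraries alone and 0.276 with no batch term.

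The remaining members of KO26 lay close to WT or spread widely between the 2 libraries. *Mcl1* was at 131.5 and 91.4 CPM (log2 fold change -0.22, 95% interval -0.48 to 0.04), and *Bcl2l1* at 15.4 and 13.4 CPM (0.34, interval -0.05 to 0.73), both intervals ending below the estimate for KO22. *Bcl2* was at 23.9 and 18.0 CPM, within or just above the WT range (interval -0.55 to 1.07). *Bax* differed widely between the 2 KO26 libraries, at 20.8 CPM in batch 8995 and 6.59 CPM in batch 9262, so that no direction could be read. *Bcl2l11* was at 60.6 and 49.3 CPM, *Bid* at 30.4 and 28.7 CPM, *Pmaip1* at 1.39 CPM in both libraries, and *Bbc3* at 0.882 and 0.810 CPM. *Bbc3* was thus above all WT libraries, on 19 and 7 counts.

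The 2 clones were then compared with each other, which also tests whether their differences from WT differ, since the WT libraries are shared. By both limits 0 members were higher and 2 lower in KO22, again *Bcl2* and *Bmf*, where 7.56% of 20737 genes were higher and 10.7% lower. By the adjusted p alone 2 were higher (*Mcl1* and *Bcl2l1*) and 2 lower, against 16.3% and 18.1% of all genes. *Bmf* differed most, with a log2 difference of -2.68 ± 0.23 between KO22 and KO26 (adjusted p = 2.03e-05, edgeR). *Mcl1* was 2.17-fold higher in KO22 than in KO26 (log2 difference 1.12 ± 0.13, adjusted p = 0.000106), and *Bcl2l1* was 1.56-fold higher (0.64 ± 0.19, adjusted p = 0.0209). The difference of *Bcl2* was -1.56 ± 0.40 (adjusted p = 0.0129). It was -0.92 without 8995-SB-2, and its adjusted p was 0.0705 without the KO26 library 8995-SB-3. The adjusted p of *Bcl2l1* was 0.0516 without 9262-SB-5, 0.055 without 8995-SB-3, 0.0967 without 9262-SB-6 and 0.111 in a fit of the clones' libraries alone, whereas *Mcl1* and *Bmf* passed the adjusted p under all 15 alternatives. The rise of *Bak1* in KO22 was not shown to be specific to that clone, since the clones differed by 0.24 with an interval of -0.34 to 0.83. Without 8995-SB-2, however, *Bak1* differed by 0.62 (adjusted p = 0.0124, edgeR). *Bcl2l11*, at -0.33 in the main fit, then differed by -0.48 (adjusted p = 0.00672). For each of these genes this was the only 1 of 15 alternatives to pass the adjusted p.

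**Figure D3:**
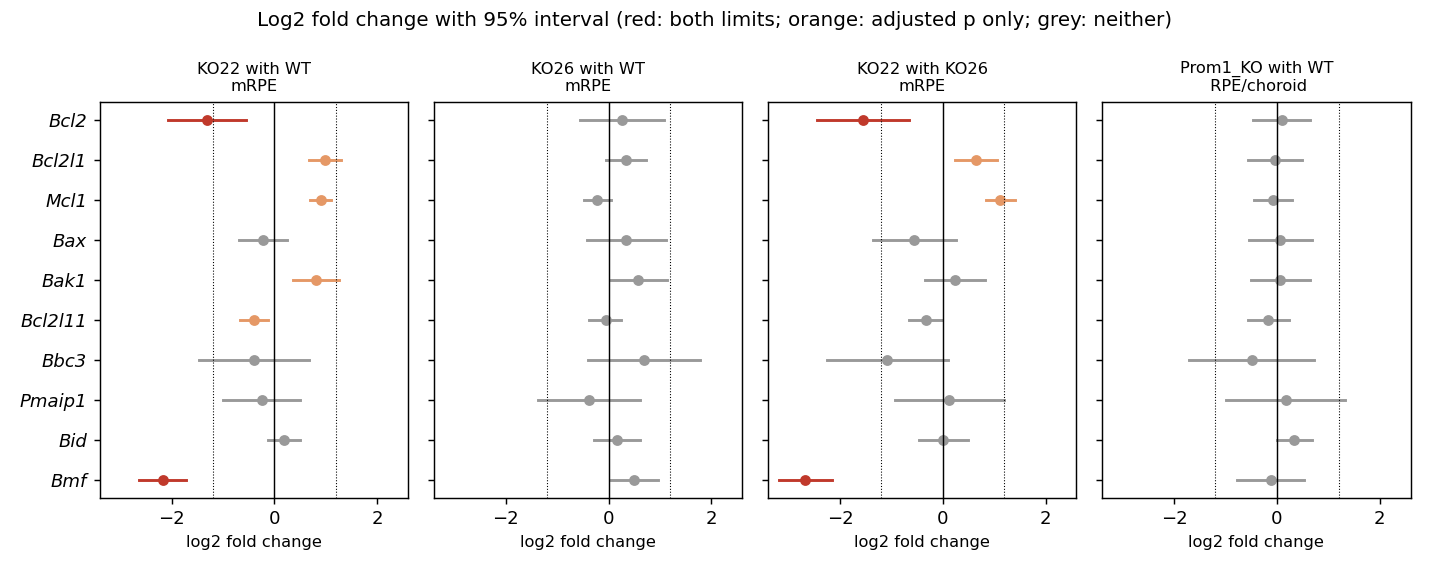
Log2 fold change (point) and 95% interval (line) of each BCL2 family gene in the 4 comparisons, with dotted lines at the limit of 1.2; red passes both limits, orange the adjusted p alone, grey neither. *Bcl2* and *Bmf* are red and *Mcl1* and *Bcl2l1* orange in both comparisons of KO22, and all 10 members are grey in KO26 with WT and in RPE/choroid.

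Within a library, ratios between members do not depend on the scaling between libraries, and are given here as a description. Per kilobase of exon, *Mcl1* RNA was 17.0 to 19.5 times that of *Bcl2* in WT mRPE and 13.4 and 14.5 times in KO26. In KO22 it was 54.9 and 62.3 times in batch 9262 and 239.0 times in 8995-SB-2. *Mcl1* was 10.1 to 16.9 times *Bmf* in WT, 6.8 and 10.5 times in KO26, and 73.0 to 189.0 times in KO22. *Bax* was 2.02 to 3.23 times *Bcl2* in WT 3.91 to 11.6 times in KO22, and 4.32 and 1.81 times in KO26, where 8995-SB-3 lay within the KO22 range.

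The 3 antiapoptotic genes held 62.2 to 65.9% of the summed level of the 10 members in WT mRPE, 74.4 to 80.8% in KO22 and 55.5 and 59.5% in KO26, so the groups did not overlap. Most of this was *Mcl1*, at 55.2 to 59.4% in WT and 68.2 to 76.1% in KO22. The BH3-only genes held 16.4 to 21.5% in WT, 8.5, 9.3 and 11% in KO22 and 17.2 and 23.8% in KO26. From WT to KO22, the mean CPM per kilobase went from 2.73 to 0.594 for *Bmf* and from 5.27 to 4.17 for *Bcl2l11*. It went from 2.95 to 3.32 for *Bid*, from 0.572 to 0.489 for *Pmaip1* and from 0.116 to 0.0866 for *Bbc3*. *Mcl1* went from 33.8 to 65.1, which by itself lowers the share of all other members. These shares are of RNA and say nothing of protein, which for *Mcl1* and *Bcl2l11* is set largely by degradation. The shares also depend on the gene length used, here the union of exons. In WT mRPE, *Bcl2l11* was at 5.27 CPM per kilobase by that length and at 10.4 by the longest transcript, and *Mcl1* at 33.8 by both.

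**Figure D4:**
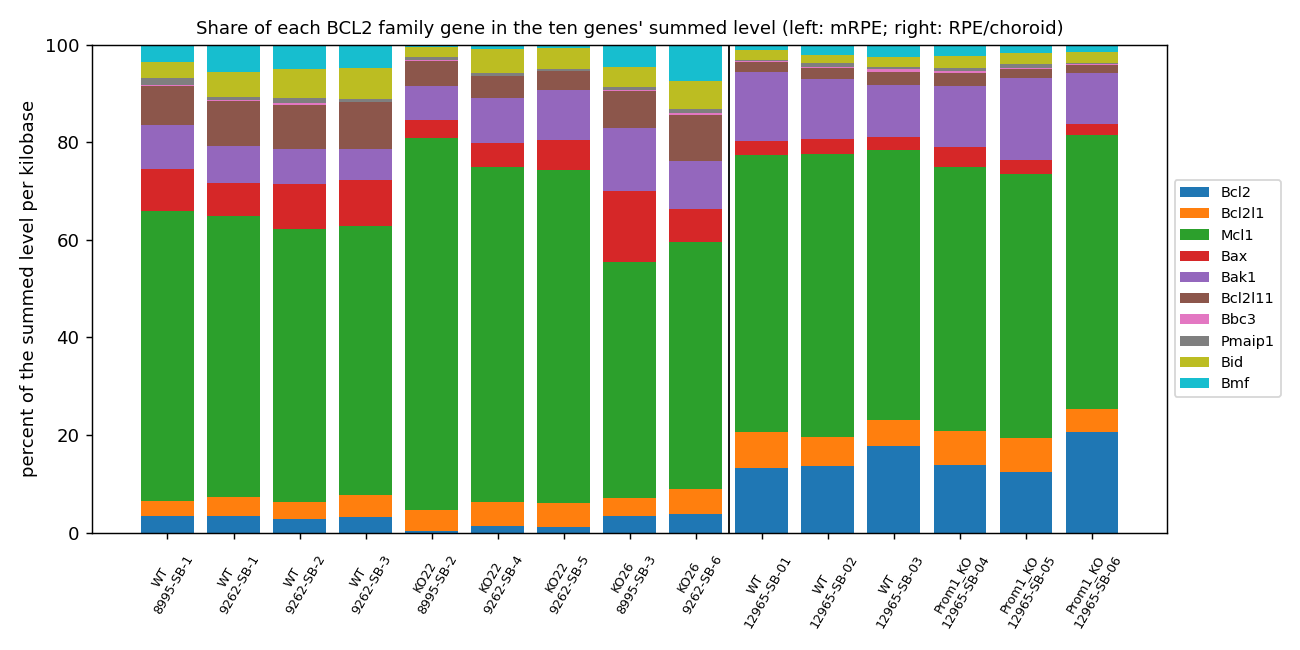
Share of each BCL2 family gene in the summed level per kilobase of the 10 genes, in percent, stacked for each library (mRPE left of the line, RPE/choroid right of it). *Mcl1* holds the largest share in every library, *Bcl2* holds 0.3 to 3.8% in mRPE and 12.4 to 20.6% in RPE/choroid, and *Bmf* is barely visible in KO22.

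The promoters of the 4 members that differed between the clones are shown because these genes moved in opposite directions in KO22. The windows are the last 110 bases before the start of the GENCODE canonical transcript in mm39, printed on the gene's strand, and capitals mark a GC box (GGGCGG) or a CCAAT box (CCAAT), each on either strand. *Bcl2* is at chr1:106642061-106642170 (minus strand), *Bcl2l1* at chr2:152673274-152673383 (minus), *Mcl1* at chr3:95565916-95566025 (plus) and *Bmf* at chr2:118380178-118380287 (minus).

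*Bcl2*: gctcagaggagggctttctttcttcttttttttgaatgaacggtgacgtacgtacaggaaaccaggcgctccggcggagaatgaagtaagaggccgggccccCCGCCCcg
*Bcl2l1*: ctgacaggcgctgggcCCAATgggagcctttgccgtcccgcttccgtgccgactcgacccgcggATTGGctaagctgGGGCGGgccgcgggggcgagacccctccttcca
*Mcl1*: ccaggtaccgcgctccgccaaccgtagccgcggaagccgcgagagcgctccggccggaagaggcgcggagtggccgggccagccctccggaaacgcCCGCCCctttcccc
*Bmf*: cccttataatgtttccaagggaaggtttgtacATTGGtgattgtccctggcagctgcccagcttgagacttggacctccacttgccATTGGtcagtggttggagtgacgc

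Over the 250 bases before the start, *Bcl2* held 5 GC boxes and no CCAAT box, *Bcl2l1* 1 GC box and 2 CCAAT boxes, *Mcl1* 1 GC box and no CCAAT box, and *Bmf* no GC box and 3 CCAAT boxes. Of 21770 promoters of this length, 36.3% held a GC box and 36.5% a CCAAT box, so either is common. The G+C share of the window was 74.0% for *Bcl2*, 68.8% for *Bcl2l1*, 65.6% for *Mcl1* and 54.0% for *Bmf*. No TATA box (TATAAA, in 11.9% of promoters) was found in the 9 members searched. An E-box (CACGTG, in 6.3% of promoters) was found in *Bax*, and a FOXO site (TGTTTAC, in 2.7%) in *Bak1* and *Bcl2l11*. Among the members shown, no motif was held by both *Mcl1* and *Bcl2l1* and by neither *Bcl2* nor *Bmf*, or the reverse. Whether any motif has a part in the differences was not tested.

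Over the 9 mRPE libraries, the genes whose log2 CPM followed that of *Bmf* most closely were *Pon3* (Pearson r = 0.999), *Bicc1* (0.995) and *Tm7sf3* (0.995), among 13891 genes compared. The log2 fold change in KO22 was -2.67 for *Pon3*, -1.55 for *Bicc1* and -1.06 for *Tm7sf3*, and in KO26 it was 0.55, 0.39 and 0.17. The coefficient exceeded 0.95 for 420 genes. The points share clone and batch, and the values are given as a description.

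Downstream of the BCL2 family, cytochrome c released from mitochondria assembles Apaf1 and caspase-9 into the apoptosome, which activates further caspases. Of 8 genes for the apoptosome and caspases, 3 were higher and 2 lower in KO22 by the adjusted p. Over all genes the shares were 26.9% and 26.1%. By both limits 2 were higher and 0 lower, against 11.4% and 13.8% of all genes. The median log2 fold change of the list was 0.19. *Apaf1* was lower in KO22, at 55.1 CPM against 81.3 CPM (log2 fold change -0.60, adjusted p = 0.00139, edgeR), whereas *Casp6*, a caspase that acts after the apoptosome, rose from 15.99 to 28.04 CPM (0.77, adjusted p = 0.00178). In KO26 the log2 fold change was 0.14 for *Apaf1* and 0.10 for *Casp6*, and neither passed the test.

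The inhibitors of apoptosis and their antagonists numbered 7 genes, of which 1 was higher and 2 lower in KO22 by the adjusted p, with a median log2 fold change of 0.05 against -0.03 over all genes. By the adjusted p, 26.9% of all genes were higher and 26.1% lower in KO22. *Birc5*, or survivin, which acts in mitosis as well as in apoptosis, rose from 21.5 ± 9.74 to 102.2 ± 17.8 CPM (log2 fold change 2.29 ± 0.27, adjusted p = 9.45e-05, edgeR), and it had a log2 fold change of 1.33 in KO26 (adjusted p = 0.0506). *Birc2*, a ubiquitin ligase of TNF receptor signalling, fell (-0.43, adjusted p = 0.00562), as did *Diablo*, the mitochondrial antagonist of these inhibitors (-0.54, adjusted p = 0.044). Of 5 genes for the pore and for released proteins, 4 were higher and 0 lower by the adjusted p, with a median of 0.84. Among them, *Vdac3*, a channel of the outer membrane, rose from 78.3 to 180.5 CPM (1.2, adjusted p = 2.23e-05), and *Aifm1*, a flavoprotein of the intermembrane space, from 36.7 to 95.4 CPM (1.36, adjusted p = 9.71e-05).

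Stability of Mcl-1 and Bim proteins is set by ubiquitin ligases and deubiquitinases. Of 6 such genes, 2 were higher and 1 lower in KO22 by the adjusted p (median -0.07). Over all genes the shares were 26.9% and 26.1%. *Usp9x*, which removes ubiquitin from Mcl-1, rose from 476.9 to 785.6 CPM (0.72, adjusted p = 0.000932, edgeR), and *Huwe1*, a ligase that marks Mcl-1 for degradation, rose by less (0.33, adjusted p = 0.0274). *Btrc*, a ligase subunit with Bim among its known substrates, fell from 54.0 ± 7.61 to 20.7 ± 3.46 CPM (-1.35, adjusted p = 1.12e-05). All 3 differed between the clones in the same direction, by 0.93, 0.49 and -1.27 on the log2 scale. KO26 had no gene of this list, nor of the inhibitors or the pore, past the test.

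Of the 10 transcription factors of family genes that were tested in mRPE, 4 were higher and 4 lower in KO22 by the adjusted p (median 0.39). Over all genes the shares were 26.9% and 26.1%. *Atf4*, the factor of the integrated stress response, rose from 84.8 ± 30.8 to 221.1 ± 3.33 CPM (1.40, adjusted p = 0.000127, edgeR), and was the 1 gene of this list past the adjusted p in KO26 (0.86, adjusted p = 0.0444). *Myc* rose from 65.9 to 145.7 CPM (1.15, adjusted p = 3.15e-05). *Trp53*, whose protein is a target of HPV E6 in all these cells, fell from 86.5 ± 6.00 to 43.4 ± 17.2 CPM (-1.02, adjusted p = 0.00258), and *Foxo3*, a known activator of *Bcl2l11* and *Bbc3*, fell from 187.9 to 129.4 CPM (-0.52, adjusted p = 0.00205). *Trp53* and *Foxo3* differed between the clones as well (-1.49 and -0.59).

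Of 13 further BCL2 family genes, 6 are among the genes listed for mRPE. By the adjusted p, 1 was higher and 1 lower in KO22 (median 0.11), against 26.9% and 26.1% of all genes. *Bok*, an effector relative, rose from 3.74 to 7.47 CPM (0.98, adjusted p = 0.00263, edgeR), and had a log2 fold change of 0.86 in KO26 (adjusted p = 0.156). *Bad*, a BH3-only gene, fell from 15.9 to 8.24 CPM (-0.94, adjusted p = 0.00611), and it differed between the clones (-1.22, adjusted p = 0.0178).

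In RPE/choroid, *Mcl1* again had the highest level per kilobase, at 12.6 ± 1.90 CPM per kilobase in WT (SD, n = 3). *Bcl2* had the second highest mean, at 3.24 ± 0.112 CPM per kilobase, but its range overlapped that of *Bak1*. In WT mRPE, *Bcl2* was eighth. *Bak1* had a mean of 2.77 and *Bcl2l1* at 1.40 CPM per kilobase, and *Bax*, *Bcl2l11*, *Bmf* and *Bid* lay between 0.410 and 0.637 with overlapping neighbours. *Pmaip1* and *Bbc3* were lowest, at 0.115 and 0.0674. The tissue and culture tables were normalized separately and are not tested against each other; within a library, *Mcl1* was 3.12 to 4.31 times *Bcl2* in WT tissue and 17.0 to 19.5 times in WT mRPE, and *Bax* was 0.153 to 0.224 times *Bcl2* in WT tissue and 2.02 to 3.23 times in WT mRPE.

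The tissue samples hold several cell types. *Prom1* itself was at 48.7, 49.6 and 53.3 CPM in WT and at 49.9, 48.1 and 35.5 CPM in the libraries labelled Prom1_KO, the lowest being 12965-SB-06 (log2 fold change -0.18 ± 0.16, adjusted p = 0.824, edgeR), so the count of the whole gene did not separate the groups. The 13 RPE markers summed to 1787 to 2726 CPM in WT and to 409.6 to 582.3 CPM in the libraries labelled Prom1_KO, with 4 of 13 lower by the adjusted p and none at 0. *Rpe65* was at 204.0 to 287.0 CPM in WT and 1.13 to 5.97 CPM in those libraries. Other markers fell less, with *Rdh5* at 50.7 to 65.5 and 9.59 to 16.1 CPM and *Mitf* at 44.3 to 53.9 and 27.5 to 30.3 CPM. The groups overlapped for *Pmel* (146.0 to 188.0 and 128.0 to 186.0 CPM) and *Best1* (1.02 to 1.72 and 0.735 to 1.86 CPM). Photoreceptor markers summed to 44.0 to 1188 CPM and 21.3 to 578.0 CPM, endothelial markers to 131.5 to 255.4 CPM and 87.1 to 120.0 CPM, and macrophage and immune markers to 84.2 to 102.8 CPM and 86.5 to 110.1 CPM. Melanocyte markers summed to 758.9 to 1101 CPM and 1038 to 1052 CPM, fibroblast and mural markers to 1161 to 1910 CPM and 1062 to 1891 CPM, and erythroid markers to 39.7 to 72.3 CPM and 14.8 to 114.1 CPM. Fewer cells of a type and less RNA per cell cannot be told apart in such samples, and the part of cell makeup in the levels below was not tested. A fit with the RPE marker sum cannot separate it from the label, since that sum does not overlap between the groups.

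No member passed either limit in the libraries labelled Prom1_KO, whose background was also low. Of the 24926 genes tested, 0.0% were higher and 0.189% lower by both limits, and 0.0% were higher and 0.193% lower by the adjusted p alone (edgeR). At an unadjusted p under 0.05 there were 0 members and 2068 genes, or 8.3% of those tested. DESeq2 likewise called 0 members in either direction. The estimates lay between -0.49 (*Bbc3*) and 0.34 (*Bid*) on the log2 scale.

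**Figure D5:**
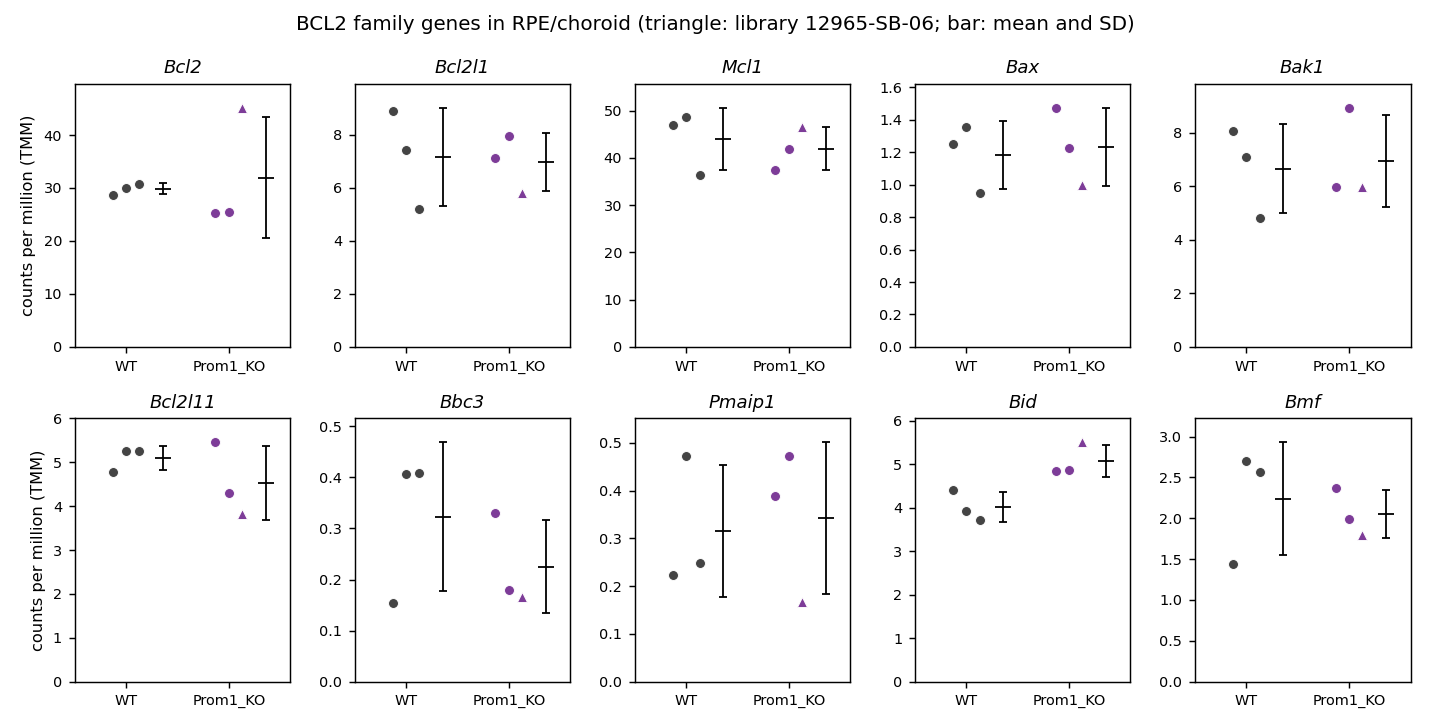
Level of each BCL2 family gene in each RPE/choroid library, in CPM on the TMM scale on a linear axis from 0, for WT and for libraries labelled Prom1_KO; the triangle is library 12965-SB-06 and the bar beside each group is the mean and SD. The groups overlap for 9 of the 10 members and not for *Bid*, and over all genes tested they do not overlap for 14.6%.

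*Bid* came closest, at 4.404, 3.92 and 3.72 CPM in WT and 4.85, 4.87 and 5.51 CPM in the libraries labelled Prom1_KO. Its groups did not overlap, as was the case for 14.6% of all genes tested, so that 1 of 10 members does not stand out. The log2 fold change was 0.34 ± 0.15 (adjusted p = 0.609, edgeR). It was 0.26 without 12965-SB-06. *Bid* shares 34.5% of its exon bases with other genes.

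*Bcl2* was at 28.8, 30.04 and 30.8 CPM in WT and at 25.3, 25.4 and 45.2 CPM in the libraries labelled Prom1_KO. The high value was that of 12965-SB-06, and the other 2 lay below all WT libraries. The log2 fold change was 0.10, with an interval of -0.46 to 0.65, and it was -0.25 without 12965-SB-06 (adjusted p = 0.513).

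*Mcl1* was at 46.9, 48.7 and 36.4 CPM in WT and at 37.4, 41.9 and 46.6 CPM in the libraries labelled Prom1_KO, and *Bcl2l1* at 8.89, 7.43 and 5.22 CPM and at 7.12, 7.97 and 5.81 CPM. The intervals of their log2 fold changes were -0.44 to 0.30 and -0.56 to 0.48, neither of which reaches the estimates for KO22 mRPE. *Bmf* was at 1.45, 2.71 and 2.57 CPM in WT and at 2.37, 1.99 and 1.79 CPM in the libraries labelled Prom1_KO (interval -0.77 to 0.53), which also does not reach its estimate in KO22. Cre acts in RPE cells while the tissue holds several cell types, so these intervals do not bound a change within RPE cells. *Bak1* ranged from 4.82 to 8.08 and from 5.96 to 8.95 CPM, *Bax* from 0.947 to 1.35 and from 0.995 to 1.48 CPM, and *Bcl2l11* from 4.78 to 5.26 and from 3.82 to 5.46 CPM. *Bbc3* and *Pmaip1* were at most 0.474 CPM in any tissue library, on 5 to 29 counts. Without 12965-SB-06 the log2 fold change was -0.16 for *Mcl1*, 0.06 for *Bcl2l1* (-0.04 with it), -0.05 for *Bmf*, 0.15 for *Bak1*, 0.18 for *Bax*, -0.08 for *Bcl2l11*, -0.36 for *Bbc3* and 0.44 for *Pmaip1* (0.17 with it), and again 0 members were called. None of the pathway lists described above had a gene past the adjusted p in tissue, and their medians lay between -0.14 and 0.14 against 0.01 over all genes.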

How the data were processed

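The authors trimmed reads with Trim Galore 0.6.7, aligned them to mm39 with STAR and took raw counts per gene from it. The deposited raw counts were used, 1 table for mRPE and 1 for RPE/choroid. The deposited normalized tables were not used. The labels name an NEB stranded kit and the methods a TruSeq stranded kit. Groups and batches came from the sample labels and library names. Replicate libraries differed by more than counting noise (lowest chi-square per degree of freedom 4.8).

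A gene entered the fits when 3 libraries or more held 5 counts or more for it. Fits were made with edgeR 4.0.16 (quasi-likelihood F test, TMM factors) under R 4.3.3, and p-values were adjusted by Benjamini-Hochberg over all genes tested. In mRPE the sequencing batch was a term. The limits (adjusted p of 0.05, log2 fold change of 1.2) and the filter follow the study's methods. The fit of KO22 against WT held 7 libraries. Both comparisons that involve KO26 came from a fit of all 9 mRPE libraries. Standard errors are the absolute log2 fold change over the square root of F. Alternatives included DESeq2 1.42.0. The code was tested on simulated data. Members, lists and tests were chosen with earlier results of these data known. Named genes were the 10 members, *Prom1*, from each pathway list up to 2 genes per direction with the smallest adjusted p in KO22, any list gene past the adjusted p in tissue, and the 3 genes most correlated with the member of smallest adjusted p. Marker genes are named beside results. Some genes that this rule names are not reported here. *Prom1* in mRPE was not analysed here. Within-batch ratios are of mean CPM and carry no test.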

Additional observations from a re-analysis of the deposited data

Results flagged for a closer look

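*Mcl1* in WT mRPE had 1 library far from the others: 8995-SB-1 at 154.0 CPM, with a gap to the next library of 0.899 of the range of the 4 libraries, above Dixon's critical value. Chance alone would single out about 1 in 20 such groups, and 10 groups were examined. This library is the only WT library of batch 8995, and the KO22 and KO26 libraries of that batch were also the higher ones of their groups.

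The effect against WT differed between the clones for 4 members, by the test of KO22 against KO26 (edgeR). The log2 difference, KO22 minus KO26, was -2.68 for *Bmf* (adjusted p = 2.03e-05), 1.12 for *Mcl1* (adjusted p = 0.000106), -1.56 for *Bcl2* (adjusted p = 0.0129) and 0.64 for *Bcl2l1* (adjusted p = 0.0209). Each clone is a single line, so clone and knockout cannot be told apart.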

How the results depend on the processing

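In KO22 against WT, 2 members were lower under every alternative but those that remove a batch 8995 library: 1 was lower in batch 9262 alone, and 1 to 2 with 1 library left out. With no limit on the fold change 3 members were higher and 3 lower. In KO22 against KO26, 1 was lower with those libraries alone, where *Bcl2* was at -1.86 (adjusted p = 0.0525), 1 to 3 with 1 library left out, and 2 were higher with no limit. The third was *Bax* without 9262-SB-6, at -1.23 (adjusted p = 0.0222). In KO26 against WT and in RPE/choroid, 0 members were called under any alternative. Signs turned only for values not called. With no batch term *Bcl2l11* was 0.04 in KO26, and *Pmaip1* -0.07 between clones. With the clones alone *Pmaip1* was -0.02 and *Bid* -0.03. With the RPE marker sum as a covariate, an alternative chosen after seeing the data, *Bcl2* was -1.24, *Bcl2l1* 0.51 and *Bcl2l11* 0.20 in tissue. That sum did not overlap between the groups, so its part and that of the label cannot be told apart in these values. With 1 library left out, KO26 values ran from -1.02 to 0.35 (*Pmaip1*), -0.02 to 0.77 (*Bcl2*), -0.45 to 1.01 (*Bax*) and -0.15 to 0.51 (*Bid*), clone differences from -1.23 to 0.23 (*Bax*), -0.60 to 0.77 (*Pmaip1*), -0.33 to 0.33 (*Bid*) and -0.05 to 0.62 (*Bak1*), and tissue values from -0.23 to 0.14 (*Bcl2l1*), -0.13 to 0.57 (*Pmaip1*), -0.19 to 0.01 (*Mcl1*), -0.36 to 0.04 (*Bmf*), -0.09 to 0.18 (*Bax*), -0.16 to 0.23 (*Bak1*) and -0.25 to 0.24 (*Bcl2*). The cause was not tested. Counts over all genes moved by over 1.5 times: 68 to 490 higher and 32 to 410 lower in KO26 (reported: 250 and 149), 988 to 3388 and 1348 to 3744 between clones (1568 and 2229), 0 to 83 and 0 to 190 in tissue (0 and 47, with 83 and 190 by DESeq2), and in KO22 5506 and 5331 with no limit (2338 and 2816). No paired analysis was possible because the library numbers pair no samples across groups.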
